A study of Mus musculus with 36 samples.

Results

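DNA replication and S phase genes are described here in BMDM, mouse macrophages grown from bone marrow with the growth factor M-CSF. The 40 genes were chosen by name, from their known roles in copying DNA, and all 40 passed the count filter, of 12957 genes tested and 54232 gene identifiers in the files. The groups were NOS1 KO cells as control, after 2 h of lipopolysaccharide (LPS, a bacterial cell wall product) and after 8 h of LPS, and WT cells as control, after 2 h and after 8 h, with 6 RNA-seq libraries in each. All were grown for 5 days with 20 ng/mL M-CSF, and LPS was given at 100 ng/mL, per the labels' protocols. The series text spells the wild type strain C65BL6 and gives no description of the NOS1 allele. The sources used here give no age, sex or number of animals, so the p-values rest on the variation among libraries that may be technical replicates. The series title concerns SOCS1 and targets of NF-kB, and no label names a question about replication.

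A cell copies its DNA in ordered steps. The origin recognition complex, with CDC6 and CDT1, loads the MCM2-7 helicase before S phase, and CDC45, the GINS complex and MCM10 then help to switch the helicase on. Polymerase alpha with primase starts each strand, polymerases delta and epsilon extend it on the PCNA clamp, RFC loads that clamp, RPA covers single-stranded DNA, and FEN1 and LIG1 finish the lagging strand. Ribonucleotide reductase and related enzymes supply the nucleotides, and CAF-1, UHRF1 and SLBP carry histones and DNA methylation through S phase. Many of these genes are known targets of the E2F transcription factors, which the retinoblastoma protein family holds in check. Macrophages grown in M-CSF divide, and LPS is known to stop that division.

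Nos1 counts went against the genotype label. Nos1 stood at 2.46, 4.47 and 5.07 CPM (lowest, median and highest of 6 libraries) in KO-labelled controls, against 0, 0.03 and 0.255 CPM in WT-labelled controls. Over all times, KO-labelled libraries held 10 to 83 raw counts of Nos1 and WT-labelled libraries 0 to 8. Counts per gene do not show which exons were read, so they check only the whole gene. Groups are therefore called KO-labelled and WT-labelled, and every direction between them rests on those labels.

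The libraries of each group also fell into sets of 3 that no label names, called set A and set B, and the largest component of the variance within groups (34%, computed without listed cell cycle genes) separated them. Library totals ran from 8953489 to 18482551 counts. All 10 macrophage markers were detected in every group, with sums of 12940 to 23090 CPM. Neutrophil precursor markers summed to 24.7 to 101 CPM (set A) and 92.5 to 316 CPM (set B). Erythroid markers summed to at most 18.4 CPM and B cell markers to at most 5.34 CPM in any library. Skeletal muscle markers passed 100 CPM in 4 WT-labelled LPS libraries, with 4164 CPM in WT LPS 8 h replicate 5, and were at or below 63.2 CPM in the others. Values within each set are given beside the pooled ones, and counts of called genes without those 4 libraries are given with the other settings. The part of the sets and of the markers in the results was not tested.

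Promoter sequence was read for the members, because their RNA moved together and many are known E2F targets. RefSeq windows (GRCm38.p6, 250 bases before to 50 after a transcription start) existed for 33 of the 40 genes, in 38 windows. The genes with no window used here were Gins1, Gins2, Gins4, Rfc2, Mcm4, Prim2 and Pole. The windows were searched on both strands for the E2F words TTTCCCGC, TTTCGCGC, TTTGCCGC and TTTGGCGC. At least 1 word lay in 13 of the 33 genes (39.4%) and in 34.2% of their windows, against 2.26% of all 32851 windows. The box CCAAT, which is a common promoter word, lay in 63.2% of the members' windows and in 37.4% of all windows. The 5 windows that follow were chosen after the values were seen. They are those of the gene with the largest 2 h fall (Cdc6), the helicase subunit with the smallest 8 h fall (Mcm6), the gene that rose (Rfc3), the gene with the largest 8 h fall (Rrm2), and the clamp gene, whose 8 h libraries split by set (Pcna).
Cdc6, chr11:98907901-98908200, plus strand: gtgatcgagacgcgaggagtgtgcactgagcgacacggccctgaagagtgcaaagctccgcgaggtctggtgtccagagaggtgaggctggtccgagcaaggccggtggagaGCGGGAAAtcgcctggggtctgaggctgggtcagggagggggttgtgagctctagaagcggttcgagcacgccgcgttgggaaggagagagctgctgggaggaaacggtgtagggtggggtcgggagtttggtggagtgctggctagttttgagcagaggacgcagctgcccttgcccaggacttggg
Mcm6, chr1:128359656-128359955, minus strand: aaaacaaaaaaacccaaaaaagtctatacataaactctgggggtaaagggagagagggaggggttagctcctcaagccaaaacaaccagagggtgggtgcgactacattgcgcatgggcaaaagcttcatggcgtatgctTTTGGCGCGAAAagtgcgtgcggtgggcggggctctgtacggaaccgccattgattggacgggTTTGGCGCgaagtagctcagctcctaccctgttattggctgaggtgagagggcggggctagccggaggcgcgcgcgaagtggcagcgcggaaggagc
Rfc3, chr5:151651159-151651458, minus strand: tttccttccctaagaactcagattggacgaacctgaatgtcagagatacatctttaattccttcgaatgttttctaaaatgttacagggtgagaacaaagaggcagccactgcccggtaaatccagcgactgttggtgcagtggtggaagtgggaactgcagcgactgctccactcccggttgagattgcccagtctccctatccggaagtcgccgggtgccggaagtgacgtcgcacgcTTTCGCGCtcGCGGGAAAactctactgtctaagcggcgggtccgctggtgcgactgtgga
Rrm2, chr12:24708004-24708303, plus strand: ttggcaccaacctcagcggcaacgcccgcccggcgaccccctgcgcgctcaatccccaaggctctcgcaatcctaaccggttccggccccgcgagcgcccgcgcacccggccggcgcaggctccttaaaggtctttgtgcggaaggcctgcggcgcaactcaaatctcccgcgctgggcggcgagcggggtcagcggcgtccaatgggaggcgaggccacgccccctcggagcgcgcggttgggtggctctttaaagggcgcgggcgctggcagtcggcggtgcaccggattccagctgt
Pcna, chr2:132253131-132253430, minus strand: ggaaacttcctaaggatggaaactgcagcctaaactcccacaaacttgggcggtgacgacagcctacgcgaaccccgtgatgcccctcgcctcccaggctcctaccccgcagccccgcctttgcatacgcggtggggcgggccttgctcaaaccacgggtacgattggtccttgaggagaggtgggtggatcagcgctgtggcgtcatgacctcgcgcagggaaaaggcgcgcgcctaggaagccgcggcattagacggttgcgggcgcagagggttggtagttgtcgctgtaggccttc
Each is printed 5′ to 3′ on the strand of its gene, and capitals mark the E2F words. Mcm6 had 3 words, 2 of which overlap, Rfc3 had 2 and Cdc6 had 1. No word was found in these windows of Rrm2 and Pcna, which says only that these letters are not there. The remaining genes with a word were Cdt1, Gins3, Lig1, Mcm3, Mcm5, Mcm7, Orc1, Pola1, Pold1 and Uhrf1. In KO-labelled libraries the median log2 fold change after 8 h of LPS was -2.24 in the 13 genes with a word and -1.74 in the 20 genes without one. The WT-labelled medians were -2.58 with a word and -1.95 without, and these medians are a description without a test.

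After 8 h of LPS, DNA replication genes were lower in both genotype labels. In KO-labelled libraries 37 of the 40 fell and 1 rose (edgeR quasi-likelihood test, Benjamini-Hochberg adjusted p below 0.05), where 37.2% of all genes tested fell and 34.9% rose. In WT-labelled libraries 38 fell and 0 rose, where 37% of all genes fell and 34.2% rose. The median log2 fold change of the 40 genes was -1.79 in KO-labelled and -2.20 in WT-labelled libraries, beside a median of -0.06 over all genes in each label. A log2 fold change of -2 or below was reached by 19 genes in KO-labelled and 21 genes in WT-labelled libraries. The 8 h libraries and the controls did not overlap, in either direction, for 36 of 40 genes (90%) in each label, against 52.5% of all genes in KO-labelled and 52.3% in WT-labelled libraries. In bulk RNA, fewer cells in S phase and less of each RNA per cell cannot be told apart.

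Markers of other cell types differed in the same libraries, and their part in the 8 h result was not tested. The summed level of T and NK cell markers was 8.71 to 20.8 CPM in KO-labelled 8 h libraries, against 0.0683 to 1.21 CPM in their controls, and to 4.62 to 18.6 CPM in WT-labelled 8 h libraries, against 0.417 to 0.904 CPM in theirs. Of these 8 markers only Lck, a kinase gene, passed the count filter, and it was called higher by 5.16 in KO-labelled and 4.59 in WT-labelled libraries on the log2 scale, while Cd3e, Gzma and Ncr1 were at 0 in all groups. The stromal sum lay between 44.5 and 79.9 CPM in KO-labelled 8 h libraries, against 22.1 to 56.2 CPM in controls, with 4 of 8 tested markers called higher. The WT-labelled stromal sums were 44.7 to 233 CPM at 8 h, against 37.9 to 64.3 CPM in controls, with 5 of 8 called higher. The 233 CPM came from replicate 5, the library with 4164 CPM of muscle markers, and the next highest sum was 103.6 CPM. In WT-labelled set B 6 stromal markers were called higher, and 4 without the muscle marker libraries. The dendritic cell sum was 84.3 to 122 CPM at 8 h, against 40.3 to 97.9 CPM in controls, in KO-labelled libraries, and to 86.1 to 112 CPM at 8 h, against 48.2 to 86.8 CPM in controls, in WT-labelled libraries, with 3 of 6 called higher in each label. Skeletal muscle markers were called higher for 9 of 9 in WT-labelled and 0 of 9 in KO-labelled libraries. In WT-labelled set B 8 were called higher, and without the muscle marker libraries 0 were higher and 1 was lower. Of 9 neutrophil precursor markers, 0 were called in KO-labelled libraries and 1 was lower in WT-labelled libraries. Within set B alone, 3 were lower (Mpo, Elane and Ltf) and 3 higher (Camp, S100a8 and S100a9) in each label. Of 8 B cell markers only Cd79b was tested, and it was called lower in the pooled fit (-1.39 in KO-labelled and -0.99 in WT-labelled libraries). The B cell sums at 8 h overlapped those of the controls. They were 1.216 to 4.02 CPM against 1.97 to 5.118 CPM in KO-labelled libraries. In WT-labelled libraries they were 1.315 to 5.345 CPM against 1.266 to 3.302 CPM. So was the erythroid marker Epor (-4.67 in KO-labelled and -2.46 in WT-labelled libraries).

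**Figure D1:**
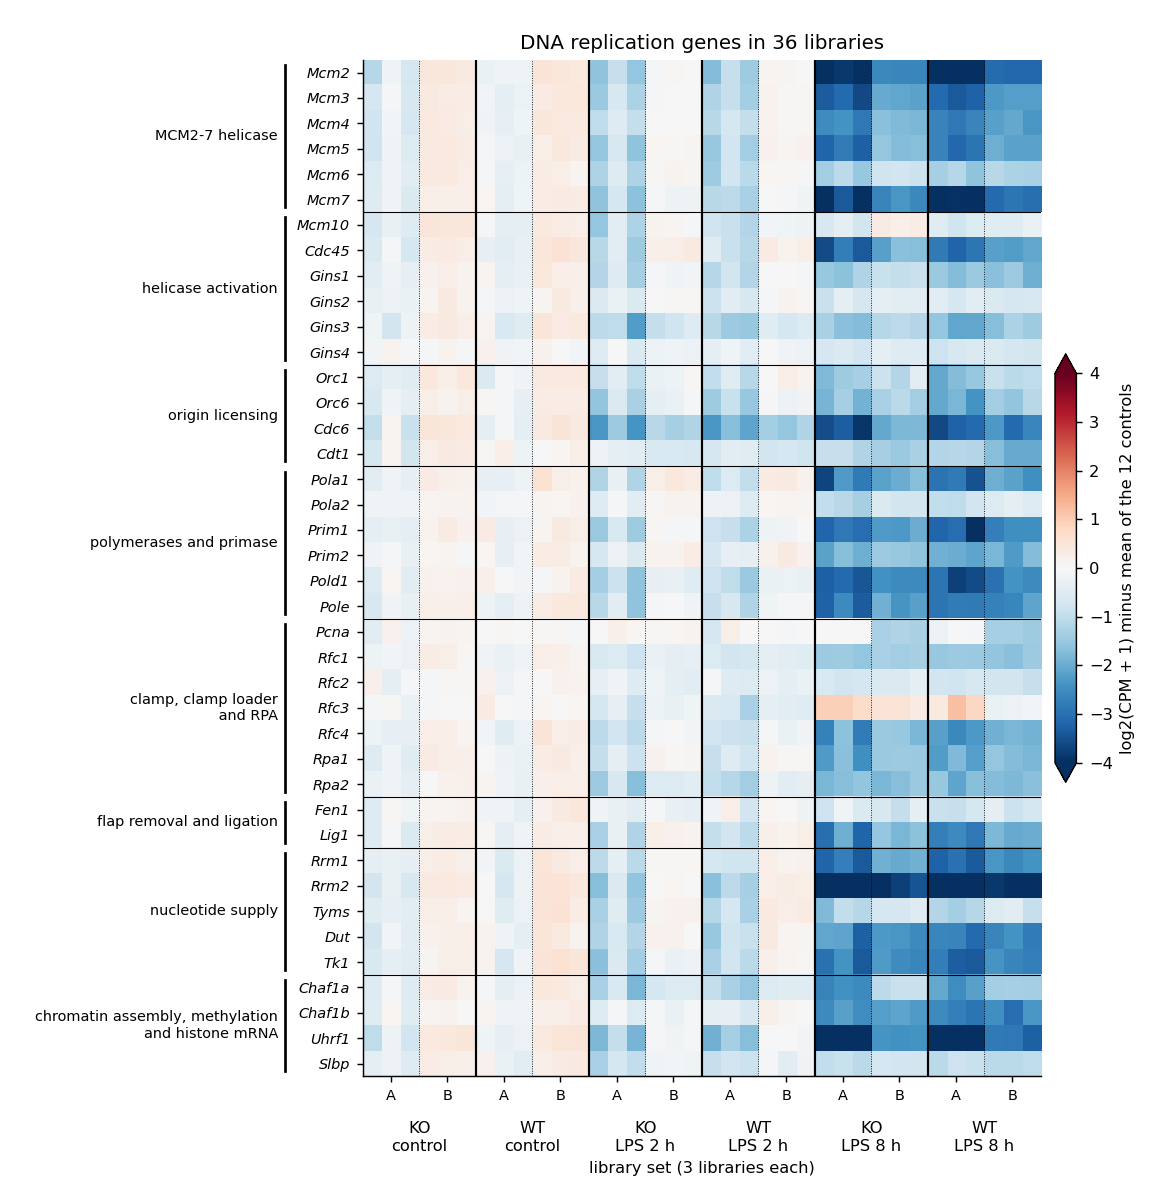
Level of each of the 40 genes in each of the 36 libraries, as log2(CPM + 1) minus the mean of the 12 controls, with genes by role down the page and libraries by group and by set (A, B) across. The 8 h columns are blue for nearly all genes, but only pale blue for genes with small falls, among them Gins2, Gins4 and Rfc2. Mcm10, Pcna in set A and Rfc3 are pale or red at 8 h, and set A controls are paler or bluer than set B controls.

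Summed over the 40 genes, the median level was lower at each later time. KO-labelled controls summed to 1769, 2668 and 3038 CPM (lowest, median and highest of 6), the 2 h libraries to 1448, 2250 and 2511 CPM, and the 8 h libraries to 922.5, 961.7 and 1128 CPM. The WT-labelled sums were 2180, 2709 and 3077 CPM in controls, 1312, 2148 and 2587 CPM at 2 h, and 741, 867.1 and 1049 CPM at 8 h. Every 8 h library lay below every control and every 2 h library of its label, while 2 h libraries and controls overlapped. Set A and set B did not overlap in the controls. KO-labelled controls summed to 1769 to 2407 CPM (set A) and 2929 to 3038 CPM (set B), and WT-labelled controls to 2180 to 2483 CPM (set A) and 2935 to 3077 CPM (set B). At 8 h the order was turned round, with 987.9 to 1128 CPM (set A) against 922.5 to 935.6 CPM (set B) for KO-labelled libraries, and 947.2 to 1049 CPM (set A) against 741 to 787.1 CPM (set B) for WT-labelled libraries. Pcna alone decided that order. Without Pcna the 8 h sums were 408.4 to 536.7 CPM (set A) and 675.2 to 695.2 CPM (set B) for KO-labelled libraries, and 431.3 to 467.2 CPM (set A) and 519 to 553.8 CPM (set B) for WT-labelled libraries, so set B was then higher, as in the controls.

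**Figure D2:**
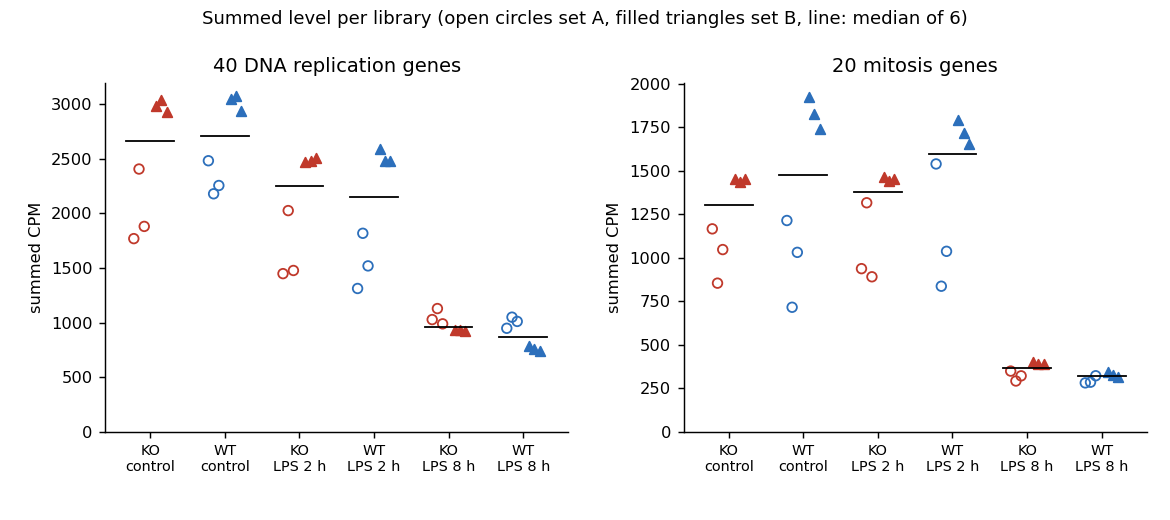
Summed CPM per library of the 40 DNA replication genes and of 20 mitosis genes, by group, with open circles for set A, filled triangles for set B and a line at the median of 6. The replication sum is 1769 to 3077 CPM in controls and 741 to 1128 CPM after 8 h, and the mitosis sum is 280 to 398.3 CPM after 8 h.

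Per length of exon, the 40 genes spanned a wide range in WT-labelled controls. Pcna had the highest mean level, 251 CPM per kb, and Mcm6 (40.9), Rrm2 (38.3) and Mcm5 (30.9 CPM per kb) came next. Fen1 (0.67), Orc1 (1.52) and Pole (2.38 CPM per kb) had the lowest. Exons of 14 of the 40 genes overlap those of another gene, and the sources used here do not say whether counting used strand. The largest shares of exon bases held in common with another gene were in Fen1 (84.2%), Gins2 (67.3%) and Chaf1a (52.5%), so their counts are uncertain.

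The MCM2-7 helicase, which unwinds DNA at the fork, was lower as a whole after 8 h, with all 6 subunits called in both labels. Its median log2 fold change was -2.43 in KO-labelled and -2.73 in WT-labelled libraries. Mcm2 had the largest change of the 6. In KO-labelled libraries it stood at 30.7, 75.3 and 95.5 CPM (lowest, median and highest of 6, as in the values that follow) in controls, 22, 51 and 71.5 CPM at 2 h, and 1.54, 7.1 and 10.7 CPM at 8 h. In WT-labelled libraries it stood at 56.6, 76 and 97.9 CPM in controls, 20.1, 51.7 and 74.6 CPM at 2 h, and 2.37, 4.79 and 7.18 CPM at 8 h. All 8 h libraries were below all others, and the 2 h libraries overlapped the controls in both labels. The 8 h log2 fold change was -3.40 ± 0.45 (SE; edgeR adjusted p = 3.11e-08) in KO-labelled libraries and -3.98 ± 0.46 (edgeR adjusted p = 2.5e-09) in WT-labelled libraries.

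Mcm6 (ENSMUSG00000026355, mm10 chromosome 1, 128331590 to 128359664, minus strand) had the smallest fall of the helicase. Mcm6 stood at 126, 199 and 247 CPM in KO-labelled controls, 78, 161 and 205 CPM at 2 h, and 65.1, 96.2 and 110 CPM at 8 h. In WT-labelled libraries Mcm6 stood at 148, 191 and 229 CPM in controls, 69.5, 146 and 196 CPM at 2 h, and 60.8, 76.2 and 85.7 CPM at 8 h. The 8 h libraries lay below all controls but overlapped the 2 h libraries. The 8 h log2 fold change was -1.08 ± 0.25 (SE; edgeR adjusted p = 0.000218) in KO-labelled and -1.33 ± 0.25 (edgeR adjusted p = 1.47e-05) in WT-labelled libraries. The other subunits fell by between 2.14 and 3.16 on the log2 scale in KO-labelled libraries, for Mcm4 and Mcm7, and by between 2.58 and 3.79 in WT-labelled libraries, for Mcm5 and Mcm7.

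Helicase activation held the smallest 8 h median of any role, -0.93 in KO-labelled and -1.34 in WT-labelled libraries, with 5 of 6 genes called in each. Cdc45, the helicase cofactor, was the one with the largest fall. Cdc45 stood at 11.6, 20.9 and 24.5 CPM in KO-labelled controls, 6.52, 18.1 and 25.1 CPM at 2 h, and 0.716, 2.77 and 5.3 CPM at 8 h. In WT-labelled libraries Cdc45 stood at 13.9, 21.3 and 29.3 CPM in controls, 8.39, 17.5 and 24.3 CPM at 2 h, and 1.21, 2.57 and 3.85 CPM at 8 h. Each 8 h library stood below all others, with log2 fold changes of -2.67 ± 0.40 (SE; edgeR adjusted p = 3.77e-07) in KO-labelled and -3.02 ± 0.41 (edgeR adjusted p = 5.67e-08) in WT-labelled libraries. The GINS subunits were unequal. In KO-labelled libraries Gins3 changed by -1.63, Gins1 by -1.27, Gins4 by -0.59 and Gins2 by -0.54, all of them called. In WT-labelled libraries the called changes were -2.14 for Gins3, -2.0 for Gins1, -0.69 for Gins4 and -0.65 for Gins2.

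Mcm10, a scaffold of the activated helicase, did not pass the test at 8 h in the pooled fit. Mcm10 stood at 17.8, 31.3 and 40.2 CPM in KO-labelled controls, 9.15, 24.6 and 31.8 CPM at 2 h, and 16.9, 27.6 and 36.4 CPM at 8 h. In WT-labelled libraries Mcm10 stood at 21.6, 30.9 and 38.3 CPM in controls, 12.3, 20.5 and 26.4 CPM at 2 h, and 16.2, 20.3 and 23.6 CPM at 8 h. The 3 groups of each label overlapped, and set B libraries were the higher ones in every group but the WT-labelled 8 h group. The 8 h log2 fold change was -0.16 ± 0.27 (SE; edgeR adjusted p = 0.61) in KO-labelled and -0.58 ± 0.27 (edgeR adjusted p = 0.0565) in WT-labelled libraries. With the set as a term in the fit, Mcm10 was called in WT-labelled libraries (-0.54, edgeR adjusted p = 0.0012) and not in KO-labelled libraries (-0.14, edgeR adjusted p = 0.367). Within set B alone Mcm10 was called, at -0.20 (edgeR adjusted p = 0.017) in KO-labelled and -0.74 (edgeR adjusted p = 3.4e-09) in WT-labelled libraries. Leaving out WT control replicate 2 or 6 also brought the WT-labelled fall of Mcm10 past the threshold, at -0.66 and -0.65.

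Of the licensing genes, all 4 fell at 8 h in both labels, with a median of -1.49 in KO-labelled and -1.93 in WT-labelled libraries. Cdc6 (ENSMUSG00000017499, mm10 chromosome 11, 98907801 to 98923940, plus strand), the helicase loader, had the largest fall of all 40 genes at 2 h. Cdc6 stood at 7.58, 18.9 and 22.5 CPM in KO-labelled controls, 2.24, 5.37 and 6.65 CPM at 2 h, and 0.111, 1.88 and 3.79 CPM at 8 h. In WT-labelled libraries Cdc6 stood at 11.7, 17.5 and 22.9 CPM in controls, 2.35, 4.36 and 6.17 CPM at 2 h, and 0.351, 0.933 and 2.36 CPM at 8 h. Every LPS library was below every control of its label at both times. At 2 h the log2 fold change was -1.78 ± 0.41 (SE; edgeR adjusted p = 0.000649), or 29.1% of the control level, in KO-labelled and -2.0 ± 0.41 (edgeR adjusted p = 0.000157), or 25.1%, in WT-labelled libraries. Both sets gave like values at 2 h, -1.72 (set A) and -1.81 (set B) for KO-labelled and -2.05 and -1.97 for WT-labelled libraries. At 8 h the changes were -3.03 ± 0.45 (SE; edgeR adjusted p = 3.14e-07) in KO-labelled and -3.83 ± 0.48 (edgeR adjusted p = 1.27e-08) in WT-labelled libraries. The 8 h counts of Cdc6 in KO-labelled libraries were only 1 to 40, which limits the precision of that fold.

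Cdt1, which loads the helicase with CDC6, had the smallest 8 h change of the licensing genes. Cdt1 stood at 48.4, 91.1 and 103 CPM in KO-labelled controls, 52, 56.8 and 67.8 CPM at 2 h, and 28.4, 33.3 and 42.5 CPM at 8 h. In WT-labelled libraries Cdt1 stood at 69.7, 84.3 and 97.5 CPM in controls, 45.7, 49.7 and 59.5 CPM at 2 h, and 19, 29.8 and 35.8 CPM at 8 h. Cdt1 was lower at each later time in WT-labelled libraries with no overlap between the 3 groups, and in KO-labelled libraries the 2 h group overlapped the controls. The log2 fold changes were -0.49 ± 0.17 (SE; edgeR adjusted p = 0.0228) at 2 h and -1.20 ± 0.17 (edgeR adjusted p = 1.7e-07) at 8 h in KO-labelled libraries, and -0.72 ± 0.17 (edgeR adjusted p = 0.000788) and -1.60 ± 0.18 (edgeR adjusted p = 6.11e-10) in WT-labelled libraries. The sets differed for Cdt1 at 2 h in KO-labelled libraries, at 0.04 (set A) and -0.94 (set B), and that difference of -0.99 passed its test. The KO-labelled call at 2 h was lost without KO control replicate 3, 4 or 5 (log2 fold changes of -0.43, -0.40 and -0.41). Orc1 and Orc6, subunits of the origin recognition complex, changed at 8 h by -1.49 and -1.48 in KO-labelled and by -1.94 and -1.92 in WT-labelled libraries.

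The polymerases and primase had an 8 h median of -2.64 in KO-labelled and -2.97 in WT-labelled libraries, with all 6 genes called in both. Pold1, the catalytic subunit of polymerase delta, had the largest change in KO-labelled libraries. Pold1 stood at 27.5, 43.7 and 46.2 CPM in KO-labelled controls, 12.6, 25.5 and 32.8 CPM at 2 h, and 2.88, 4.99 and 6.84 CPM at 8 h. In WT-labelled libraries Pold1 stood at 37.8, 42.3 and 51.6 CPM in controls, 13.9, 27.5 and 34.7 CPM at 2 h, and 2.11, 4.39 and 6.97 CPM at 8 h. In WT-labelled libraries the 3 groups did not overlap, and in KO-labelled libraries only the 2 h group and the controls did. At 2 h Pold1 changed by -0.71 ± 0.24 (SE; edgeR adjusted p = 0.0214) in KO-labelled and -0.72 ± 0.24 (edgeR adjusted p = 0.0174) in WT-labelled libraries. Those 2 h calls were lost without KO LPS 2 h replicate 1 or 6 (-0.61 and -0.58) and without WT LPS 2 h replicate 6 (-0.59). At 8 h the changes were -3.01 ± 0.28 (edgeR adjusted p = 8.54e-12) in KO-labelled and -3.26 ± 0.28 (edgeR adjusted p = 1.8e-12) in WT-labelled libraries.

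Pola2, the accessory subunit of polymerase alpha, had the smallest change of that role. Pola2 stood at 26.6, 29.5 and 33.2 CPM in KO-labelled controls, 20.8, 29.6 and 33.1 CPM at 2 h, and 11.3, 16.1 and 19.8 CPM at 8 h. In WT-labelled libraries Pola2 stood at 27.5, 30.2 and 33.9 CPM in controls, 20.1, 28.7 and 32.6 CPM at 2 h, and 14.3, 18.7 and 22.9 CPM at 8 h. The 2 h medians were within 2 CPM of the control medians, and the 8 h libraries lay below all controls. At 8 h Pola2 changed by -0.92 ± 0.14 (SE; edgeR adjusted p = 5.54e-07) in KO-labelled and -0.73 ± 0.14 (edgeR adjusted p = 2.13e-05) in WT-labelled libraries. In KO-labelled libraries its catalytic partner Pola1 changed by -2.50, the primase subunits Prim1 and Prim2 by -2.95 and -1.81, and Pole, the catalytic subunit of polymerase epsilon, by -2.78. In WT-labelled libraries Pola1 changed by -2.85, Prim1 by -3.61, Prim2 by -2.26 and Pole by -3.08.

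Of the 7 genes of the clamp, its loader and RPA, 5 fell and 1 rose in KO-labelled libraries at 8 h, and 6 fell in WT-labelled libraries. Rfc4, a loader subunit, had the largest fall. Rfc4 stood at 9.44, 11.8 and 15 CPM in KO-labelled controls, 5.35, 9.08 and 12.5 CPM at 2 h, and 0.885, 2.96 and 3.77 CPM at 8 h. In WT-labelled libraries Rfc4 stood at 8.44, 12.9 and 17.8 CPM in controls, 6.07, 8.43 and 11.9 CPM at 2 h, and 1.21, 2.19 and 2.73 CPM at 8 h. Each 8 h library was below all others, and the log2 fold changes were -2.25 ± 0.29 (SE; edgeR adjusted p = 2.17e-08) in KO-labelled and -2.59 ± 0.30 (edgeR adjusted p = 1.86e-09) in WT-labelled libraries. The large loader subunit Rfc1 changed by -1.46 in KO-labelled and -1.58 in WT-labelled libraries, and Rfc2 by -0.58 in KO-labelled and -0.82 in WT-labelled libraries. Of the RPA subunits, Rpa1 changed by -1.76 in KO-labelled and -1.98 in WT-labelled libraries, and Rpa2 by -1.71 in KO-labelled and -1.92 in WT-labelled libraries.

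Rfc3 (ENSMUSG00000033970, mm10 chromosome 5, 151642756 to 151651242, minus strand), another subunit of the same clamp loader, moved the other way. Rfc3 stood at 15.6, 18.6 and 19.6 CPM in KO-labelled controls, 9.53, 15.2 and 16.8 CPM at 2 h, and 24.3, 30.2 and 37.9 CPM at 8 h. In WT-labelled libraries Rfc3 stood at 18.5, 19.4 and 23.9 CPM in controls, 7.19, 13 and 14.2 CPM at 2 h, and 15.5, 21.4 and 45.4 CPM at 8 h. All KO-labelled 8 h libraries were above all KO-labelled controls, while the WT-labelled 8 h libraries lay on both sides of their controls. Against control, Rfc3 changed at 8 h by 0.78 ± 0.19 (SE; edgeR adjusted p = 0.000617) in KO-labelled libraries and by 0.35 ± 0.20 (edgeR adjusted p = 0.106) in WT-labelled libraries. Against the 2 h libraries, the 8 h libraries were higher by 1.16 ± 0.20 (edgeR adjusted p = 4.66e-06) in KO-labelled and by 1.06 ± 0.20 (edgeR adjusted p = 1.95e-05) in WT-labelled libraries. The sets differed for this gene. At 8 h the WT-labelled libraries held 25.2 to 45.4 CPM (set A) and 15.5 to 17.5 CPM (set B), with changes of 0.77 and -0.24, and the difference of -1.03 passed its test (edgeR adjusted p = 0.0022). The KO-labelled libraries held 32.5 to 37.9 CPM (set A) and 24.3 to 27.9 CPM (set B), with changes of 1.03 and 0.50. Scaled by library totals alone, the direction was turned to -0.05 in KO-labelled and -0.44 in WT-labelled libraries, a scaling that lowers the median of all genes at 8 h to -0.88 in KO-labelled and -0.83 in WT-labelled libraries. The WT-labelled rise passed the threshold without WT LPS 8 h replicate 3, 4 or 5 (0.46, 0.46 and 0.44).

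Pcna (ENSMUSG00000027342, mm10 chromosome 2, 132249162 to 132253314, minus strand), the sliding clamp, differed between the sets after 8 h. Pcna stood at 440, 635 and 665 CPM in KO-labelled controls, 588, 627 and 680 CPM at 2 h, and 238, 418 and 591 CPM at 8 h. In WT-labelled libraries Pcna stood at 577, 603 and 617 CPM in controls, 371.1, 597 and 695 CPM at 2 h, and 222, 367.5 and 582 CPM at 8 h. The 8 h libraries formed separate clusters. KO-labelled 8 h libraries held 579 to 591 CPM (set A) and 238 to 256 CPM (set B), and WT-labelled 8 h libraries held 502 to 582 CPM (set A) and 222 to 233 CPM (set B). Pooled, Pcna changed by -0.50 ± 0.24 (SE; edgeR adjusted p = 0.0543) in KO-labelled and -0.62 ± 0.24 (edgeR adjusted p = 0.0195) in WT-labelled libraries. With the set as a term both falls were called, at -0.59 (edgeR adjusted p = 0.0123) in KO-labelled and -0.69 (edgeR adjusted p = 0.00389) in WT-labelled libraries. The change did not hold within set A. In KO-labelled libraries set A gave 0.13 and set B -1.39, a difference of -1.52 (edgeR adjusted p = 5e-07), and in WT-labelled libraries -0.11 and -1.37, a difference of -1.27 (edgeR adjusted p = 1.1e-05). The WT-labelled call was lost without WT LPS 8 h replicate 3, 4 or 5 (-0.51, -0.51 and -0.50), and the KO-labelled fall passed the threshold without KO control replicate 1 or 6 (-0.58 and -0.55) or KO LPS 8 h replicate 1, 2 or 6 (-0.63, -0.63 and -0.62). Reads of the pseudogene Pcna-ps2 were few, 680 in all libraries against 245335 for Pcna.

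**Figure D3:**
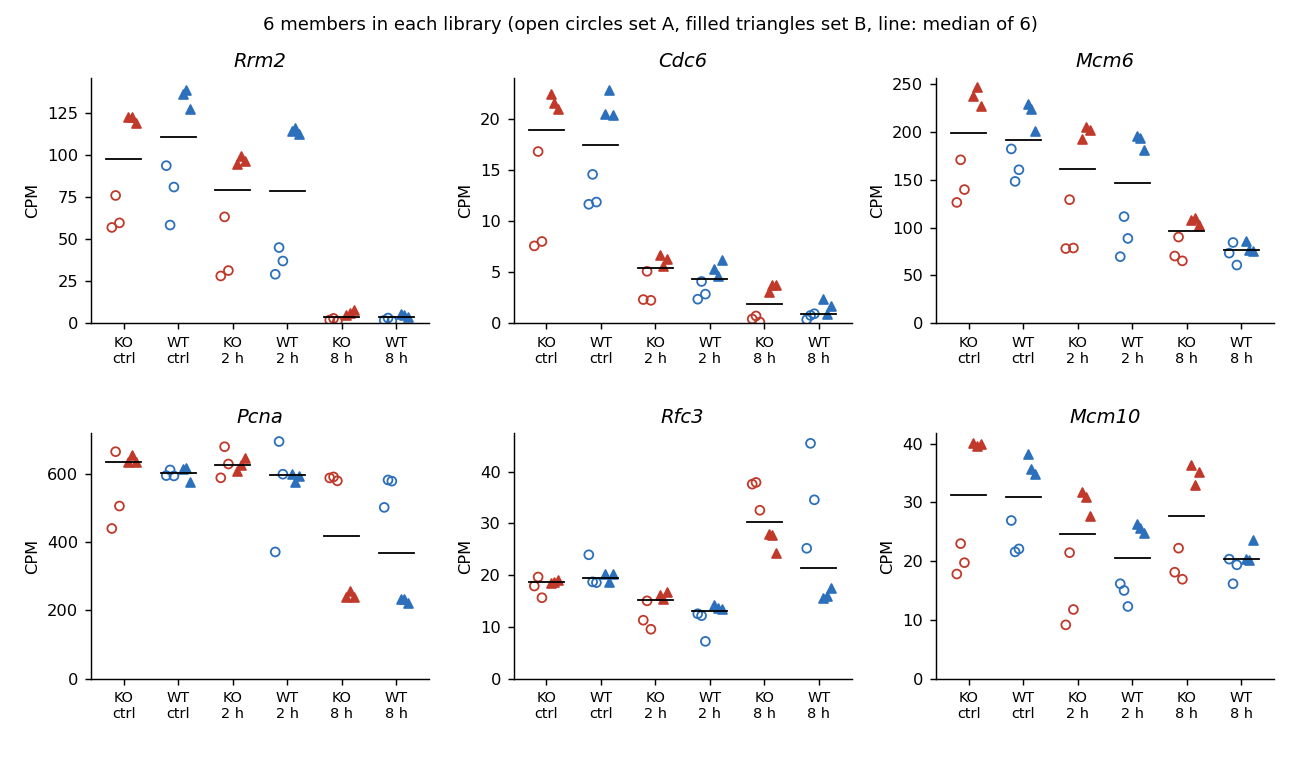
CPM of 6 of the genes in each library, by group, with KO-labelled libraries in red, WT-labelled libraries in blue, open circles for set A, filled triangles for set B and a line at the median of 6. Rrm2 and Cdc6 approach 0 at 8 h, Pcna at 8 h splits into 502 to 591 CPM (set A) and 222 to 256 CPM (set B), and Rfc3 at 8 h is above its controls in all KO-labelled libraries.

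Of the genes that finish the lagging strand, Lig1, the replicative ligase, fell in both labels. Lig1 stood at 46.8, 74.5 and 86.8 CPM in KO-labelled controls, 27.9, 66.8 and 82.5 CPM at 2 h, and 6.75, 18.2 and 23.3 CPM at 8 h. In WT-labelled libraries Lig1 stood at 54.7, 76 and 86 CPM in controls, 33.4, 59.4 and 82 CPM at 2 h, and 8.83, 13.8 and 19.5 CPM at 8 h. The 8 h libraries were below all others, with changes of -2.12 ± 0.31 (SE; edgeR adjusted p = 2.57e-07) in KO-labelled and -2.41 ± 0.32 (edgeR adjusted p = 2.88e-08) in WT-labelled libraries. Fen1, the flap nuclease, was counted at only 2 to 37 reads per library. It stood at 0.751, 1.62 and 1.8 CPM in KO-labelled controls, 0.875, 1.03 and 1.4 CPM at 2 h, and 0.284, 0.626 and 1.21 CPM at 8 h, and at 0.903, 1.49 and 2.43 CPM in WT-labelled controls, 0.449, 1.37 and 1.99 CPM at 2 h, and 0.302, 0.452 and 0.885 CPM at 8 h. These low values came with the exon overlap given above and with calls at 8 h of -1.08 ± 0.32 (SE; edgeR adjusted p = 0.00333) in KO-labelled and -1.68 ± 0.34 (edgeR adjusted p = 4.17e-05) in WT-labelled libraries. In set A alone the KO-labelled change of Fen1 was -0.59 and did not pass the test.

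The nucleotide supply genes held the largest single fall. Rrm2 (ENSMUSG00000020649, mm10 chromosome 12, 24708241 to 24714146, plus strand), the S phase subunit of ribonucleotide reductase, stood in KO-labelled libraries at 57, 97.7 and 123 CPM in controls, 28.1, 79.1 and 99.4 CPM at 2 h, and 1.11, 3.76 and 7.67 CPM at 8 h. In WT-labelled libraries it stood at 58.4, 111 and 139 CPM in controls, 29.1, 78.7 and 116 CPM at 2 h, and 1.32, 3.38 and 5.6 CPM at 8 h. All 12 libraries at 8 h held less than every control and every 2 h library. The 8 h log2 fold change was -4.50 ± 0.46 (SE; edgeR adjusted p = 1.01e-10), or 4.41% of control, in KO-labelled and -4.94 ± 0.47 (edgeR adjusted p = 2.3e-11), or 3.25%, in WT-labelled libraries. The large subunit Rrm1 changed by -2.44 in KO-labelled and -2.89 in WT-labelled libraries. Dut, which removes dUTP, changed by -2.63 in KO-labelled and -3.20 in WT-labelled libraries, and thymidine kinase Tk1 by -2.68 in KO-labelled and -3.17 in WT-labelled libraries.

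Tyms, thymidylate synthase, had the smallest fall of the nucleotide genes. Tyms stood at 16.9, 22.6 and 29.4 CPM in KO-labelled controls, 8.17, 21.7 and 27.2 CPM at 2 h, and 6.34, 13.1 and 16.5 CPM at 8 h. In WT-labelled libraries Tyms stood at 16.9, 26.8 and 36.5 CPM in controls, 9.21, 21.9 and 32.1 CPM at 2 h, and 8.76, 11.5 and 17.3 CPM at 8 h. KO-labelled 8 h libraries were below all controls, and the highest WT-labelled 8 h library was above the lowest control. The 8 h change was -0.89 ± 0.31 (SE; edgeR adjusted p = 0.0114) in KO-labelled and -1.10 ± 0.31 (edgeR adjusted p = 0.00226) in WT-labelled libraries. The pseudogene Tyms-ps took 8 counts in all libraries against 9237 for Tyms.

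The 4 genes of chromatin assembly, DNA methylation and histone mRNA all fell at 8 h, with a median of -2.0 in KO-labelled and -2.47 in WT-labelled libraries. Uhrf1, which brings the maintenance DNA methyltransferase to newly copied DNA, had the largest change. Uhrf1 stood at 45.7, 102 and 132 CPM in KO-labelled controls, 25, 66 and 89.1 CPM at 2 h, and 2.15, 9.95 and 17.2 CPM at 8 h. In WT-labelled libraries Uhrf1 stood at 73.4, 103 and 134 CPM in controls, 23.9, 61.6 and 92 CPM at 2 h, and 2.11, 6.23 and 12.2 CPM at 8 h. The 8 h libraries were below all others, at -3.24 ± 0.50 (SE; edgeR adjusted p = 7.71e-07) in KO-labelled and -3.89 ± 0.52 (edgeR adjusted p = 5.1e-08) in WT-labelled libraries. Chaf1a and Chaf1b, subunits of the histone chaperone CAF-1, changed by -1.61 and -2.38 in KO-labelled and by -1.92 and -3.02 in WT-labelled libraries.

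Slbp, which binds the stem-loop of histone mRNA, had the smallest change of that role. Slbp stood at 23.9, 35.2 and 43.1 CPM in KO-labelled controls, 13.8, 26 and 32.5 CPM at 2 h, and 16, 19.1 and 21.1 CPM at 8 h. In WT-labelled libraries Slbp stood at 26, 40.6 and 45.6 CPM in controls, 17.9, 22.9 and 33.7 CPM at 2 h, and 15.9, 16.5 and 19.3 CPM at 8 h. Each 8 h library was below all controls, and the 2 h libraries overlapped both. At 8 h the change was -0.86 ± 0.19 (SE; edgeR adjusted p = 0.000178) in KO-labelled and -1.14 ± 0.19 (edgeR adjusted p = 3.83e-06) in WT-labelled libraries.

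After 2 h of LPS fewer of the genes were called. In KO-labelled libraries 10 of 40 fell, where 16.4% of all genes fell, and in WT-labelled libraries 12 of 40 fell, where 17.7% of all genes fell, with 0 called higher in either label, where 18.9% of all genes were in KO-labelled and 20.3% in WT-labelled libraries. The median log2 fold change was -0.44 in KO-labelled and -0.50 in WT-labelled libraries, beside -0.01 (KO-labelled) and -0.02 (WT-labelled) over all genes. The genes called in both labels were Cdc6, Cdt1, Gins3, Gins4, Pold1, Rfc1, Rfc2, Rpa2, Chaf1a and Slbp, and Orc6 and Rfc3 were called in WT-labelled libraries. After Cdc6, the largest 2 h changes were in Gins3 (-1.21 in KO-labelled and -1.16 in WT-labelled libraries), Chaf1a (-0.87 in KO-labelled and -0.95 in WT-labelled libraries) and Rpa2 (-0.79 in KO-labelled and -0.80 in WT-labelled libraries). In this pooled fit no MCM2-7 or nucleotide supply gene passed the test at 2 h, a result that did not hold once the sets were taken into account. LPS libraries at 2 h and controls did not overlap for 4 genes in KO-labelled libraries (10%, against 22.4% of all genes) and for 6 in WT-labelled libraries (15%, against 22.2% of all genes).

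The 2 h counts depended on how the sets were treated. With the set as a term in the fit, 27 genes fell in KO-labelled libraries (background 21.2%) and 35 in WT-labelled libraries (22.8%). Set A alone gave 17 genes in KO-labelled (14.5%) and 30 in WT-labelled libraries (17.2%), and set B alone gave 29 in KO-labelled (22.9%) and 28 in WT-labelled libraries (24.3%). Without KO LPS 2 h replicate 6, 6 genes fell in KO-labelled libraries. All 6 MCM2-7 genes fell at 2 h in each label with the set as a term, and so did 3 of the 5 nucleotide supply genes in KO-labelled and 5 in WT-labelled libraries. Within set A, 5 MCM2-7 genes fell in KO-labelled and 6 in WT-labelled libraries, and within set B all 6 fell in each label. A difference between the sets at 2 h passed its own test for Cdt1 in KO-labelled libraries, given above, and for Mcm5 (0.83) and Uhrf1 (0.89) in WT-labelled libraries, both with the larger fall in set A, where 4.26% of all genes differed between the sets in KO-labelled and 6.03% in WT-labelled libraries. Some calls at 2 h were lost when 1 library was left out, in several cases whichever of a number of libraries it was. The KO-labelled call of Slbp was lost without KO control replicate 3, 4 or 5 or KO LPS 2 h replicate 1, 2 or 6 (-0.43 to -0.36). That of Chaf1a was lost without KO control replicate 3 or 4 or KO LPS 2 h replicate 1 or 6 (-0.80 to -0.73), and that of Gins4 without KO LPS 2 h replicate 6 (-0.23). The WT-labelled call of Gins4 was lost without WT control replicate 1, 3 or 4 or WT LPS 2 h replicate 1, 2, 5 or 6 (-0.25 to -0.19), and that of Orc6 without WT LPS 2 h replicate 1 or 6 (-0.62 and -0.61).

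**Figure D4:**
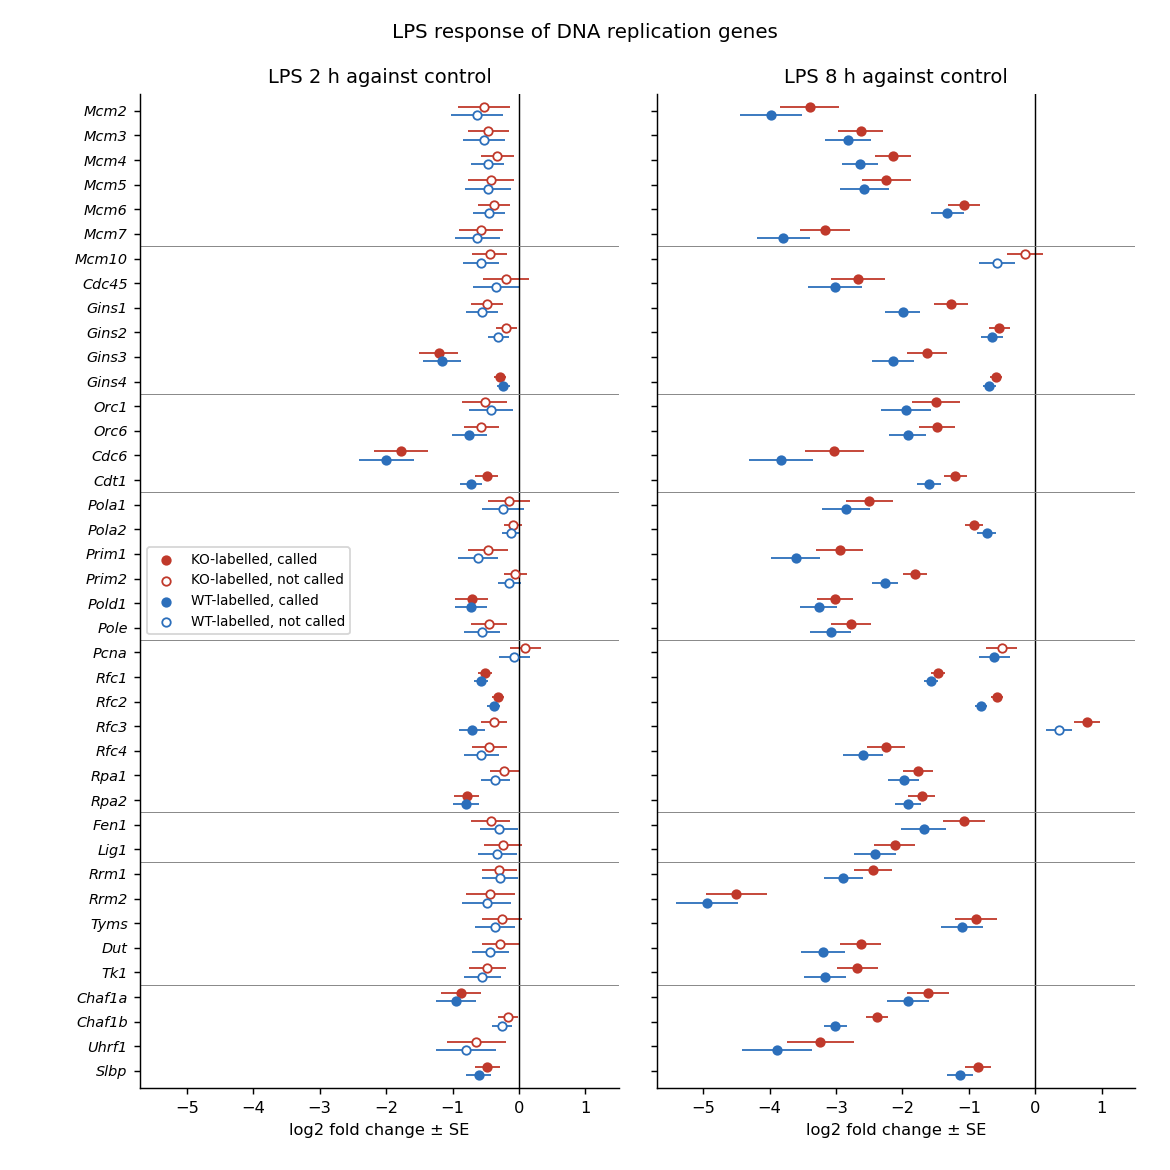
Log2 fold change with SE of each of the 40 genes after 2 h (left panel) and 8 h of LPS (right panel) against control, in KO-labelled (red) and WT-labelled libraries (blue), with filled points for called genes. At 2 h the points lie between -2.0 and 0.10, and at 8 h between -4.94 and 0.78, with Rfc3 the only gene to the right of 0 on this scale (TMM), and to the left of 0 with library totals.

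Between the 2 h and the 8 h libraries, 33 genes fell and 1 rose in KO-labelled libraries (33.7% of all genes fell and 31.5% rose), and 37 fell and 1 rose in WT-labelled libraries (32.8% fell and 30% rose). The median log2 fold change from 2 h to 8 h was -1.39 in KO-labelled and -1.73 in WT-labelled libraries. Rfc3 was the gene that rose in both. The genes not called were Mcm10, Gins2, Gins3, Fen1, Tyms and Slbp in KO-labelled libraries and Mcm10 and Gins2 in WT-labelled libraries. Some of these calls were also lost when 1 library was left out, whichever of a number of libraries it was. In KO-labelled libraries that of Pcna was lost without LPS 8 h replicate 3, 4 or 5 (-0.49 to -0.48), that of Orc1 without LPS 8 h replicate 1 or LPS 2 h replicate 5 (-0.82 and -0.83), and that of Chaf1a without LPS 8 h replicate 1, 2 or 6 or LPS 2 h replicate 2, 3, 4 or 5 (-0.71 to -0.58). In WT-labelled libraries that of Pcna was lost without LPS 8 h replicate 3, 4 or 5 or LPS 2 h replicate 2, 3, 4, 5 or 6 (-0.55 to -0.43), that of Tyms without LPS 8 h replicate 1, 2, 5 or 6 or LPS 2 h replicate 3, 4 or 5 (-0.74 to -0.58), and that of Slbp without LPS 2 h replicate 3 or 5 (-0.42 and -0.45). These comparisons share their libraries with those against control. Groups did not overlap for 23 genes in KO-labelled libraries (57.5%, against 44.6% of all genes) and for 27 in WT-labelled libraries (67.5%, against 41.3%).

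Within the sets, the 8 h fall was seen in both. In set A, 36 genes fell in KO-labelled (34.3% of all genes) and 37 in WT-labelled libraries (34.6%), and in set B 39 fell in KO-labelled (39.7%) and 40 in WT-labelled libraries (38.7%). The size of the 8 h response differed between the sets for 8 of 40 genes in each label, where 22% of all genes differed in KO-labelled and 16.6% in WT-labelled libraries. In KO-labelled libraries Mcm2, Mcm7, Cdc45, Cdc6, Chaf1a and Uhrf1 fell further in set A, and Cdt1 and Pcna further in set B. In WT-labelled libraries Mcm7 and Uhrf1 fell further in set A, and Gins2, Cdt1, Pcna, Rfc1, Rfc3 and Slbp were lower in set B. In the controls, all set B libraries were above all set A libraries for 34 genes in KO-labelled (26.4% of all genes) and 32 in WT-labelled libraries (22.7%). At 8 h this count was 29 in KO-labelled (23.5% of all genes) and 21 in WT-labelled libraries (19.9%).

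Between the genotype labels, none of the 40 genes was called at any time. In KO-labelled against WT-labelled libraries 0 genes passed in controls, at 2 h or at 8 h (edgeR adjusted p below 0.05), where 0.147%, 0.0232% and 0.1% of all genes passed in either direction, and DESeq2 and limma-voom also called 0. At an unadjusted p below 0.05, 0 genes passed in controls, 0 at 2 h and 2 at 8 h. These were Gins1, at 0.59 ± 0.28 (SE; edgeR adjusted p = 0.507), and Chaf1b, at 0.44 ± 0.18 (edgeR adjusted p = 0.384). The median log2 difference between the labels was -0.13 in controls, -0.02 at 2 h and 0.25 at 8 h. Over all genes it was -0.002 in controls, -0.01 at 2 h and 0.02 at 8 h. At 8 h the log2 difference was above 0 for 38 of 40 genes, and the share of all genes above 0 is not given. The 40 genes moved together, so that count is not made of separate results. Standard errors of the 8 h difference ran from 0.09 to 0.53, with a median of 0.30 that was larger than the median difference.

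The LPS response itself was compared between the labels by an interaction term. No gene of the 40 passed at 2 h or 8 h (0% of all genes), DESeq2 and limma-voom called 0 as well, and at an unadjusted p below 0.05 there were 0 genes at 2 h and 1 at 8 h, Chaf1b (0.63, edgeR adjusted p = 0.957). The interaction was above 0, a smaller fall or a larger rise in KO-labelled libraries, for 39 of the 40 genes at 8 h, with a median of 0.38, and for 35 at 2 h, with a median of 0.09. Over all genes its median was 0.01 at 8 h and -0.003 at 2 h, and the share above 0 is not given. The 40 genes moved together, so such counts are not separate results. The control difference, below 0 for 36 of the 40 genes (the share of all genes is not given), enters the interaction as well.

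Within the sets, the comparison of labels at 8 h gave unlike counts of called genes, while the difference between the sets was called for 0 of 40. In set B 20 of 40 genes were higher in KO-labelled libraries (18.2% of all genes) and 1, Pola2, was lower (13.3%), while in set A 0 genes were called (0.0469% of all genes). The largest of these in set B were Cdc6 (1.09 ± 0.23, SE, edgeR adjusted p = 0.00059), Gins1 (0.93 ± 0.16), Mcm10 (0.70 ± 0.08), Rfc3 (0.70 ± 0.09), Uhrf1 (0.60) and Mcm2 (0.57 ± 0.10), and Pola2 stood at -0.21 ± 0.08 (edgeR adjusted p = 0.045). Cdc6 stood at -0.60 in set A and was not called there. That value rests on few reads, at 0.11 to 0.70 CPM (KO-labelled) and 0.35 to 0.92 CPM (WT-labelled). The median over the 40 genes was 0.37 in set B and 0.06 in set A. The median SE was 0.10 in set B and 0.28 in set A, so the counts of calls do not compare the sets at like precision. Replicate pairs had a median chi-square per gene of 3.34 inside set B, 14.94 inside set A and 49.94 between the sets. The set B p-values thus measure only the small spread inside that set, among libraries that may be technical replicates. Markers of other cell types differed in the same set B comparison. In KO-labelled libraries 8 of the 8 skeletal muscle markers tested in set B were lower (median -6.11). So were 8 of 8 stromal markers (-1.41) and 6 of 9 neutrophil precursor markers (-0.69). The T and NK cell marker Lck was higher (0.87). Of 6 dendritic cell markers, 2 were higher and 1 was lower. In set B at 8 h, muscle marker sums were 6.60, 7.76 and 42.8 CPM (KO-labelled) and 4.995, 7.37 and 4164 CPM (WT-labelled). Stromal sums were at most 45.4 CPM (KO-labelled) and at least 80.5 CPM (WT-labelled), and neutrophil precursor sums at most 125.3 CPM (KO-labelled) and at least 201 CPM (WT-labelled). Without the set B libraries with muscle markers over 100 CPM, which leaves 2 WT-labelled libraries at 8 h, 18 of the 40 genes were higher in KO-labelled libraries (15.1% of all genes) and 0 were lower (10.7%). In that fit 0 muscle markers were lower and 1 was higher, while 6 stromal and 5 neutrophil precursor markers were still called lower. The part of the stromal and neutrophil precursor markers was not tested. The interaction at 8 h gave 19 genes in set B (8.42% of all genes), 16 in set B without the muscle marker libraries (6.85%) and 0 in set A. The difference between the sets itself was called for 0 of 40 genes in the comparison of labels at 8 h (5.53% of all genes) and in the interaction at 8 h (1.65%). In controls set B called Cdt1 (0.22 ± 0.07, edgeR adjusted p = 0.0338, with -0.44 in set A) and Tk1 (-0.32 ± 0.07, edgeR adjusted p = 0.00413, with -0.30 in set A), and at 2 h Mcm10 (0.24), Rrm2 (-0.23) and Tk1 (-0.29), where 10.5% of all genes were called at each of these times.

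**Figure D5:**
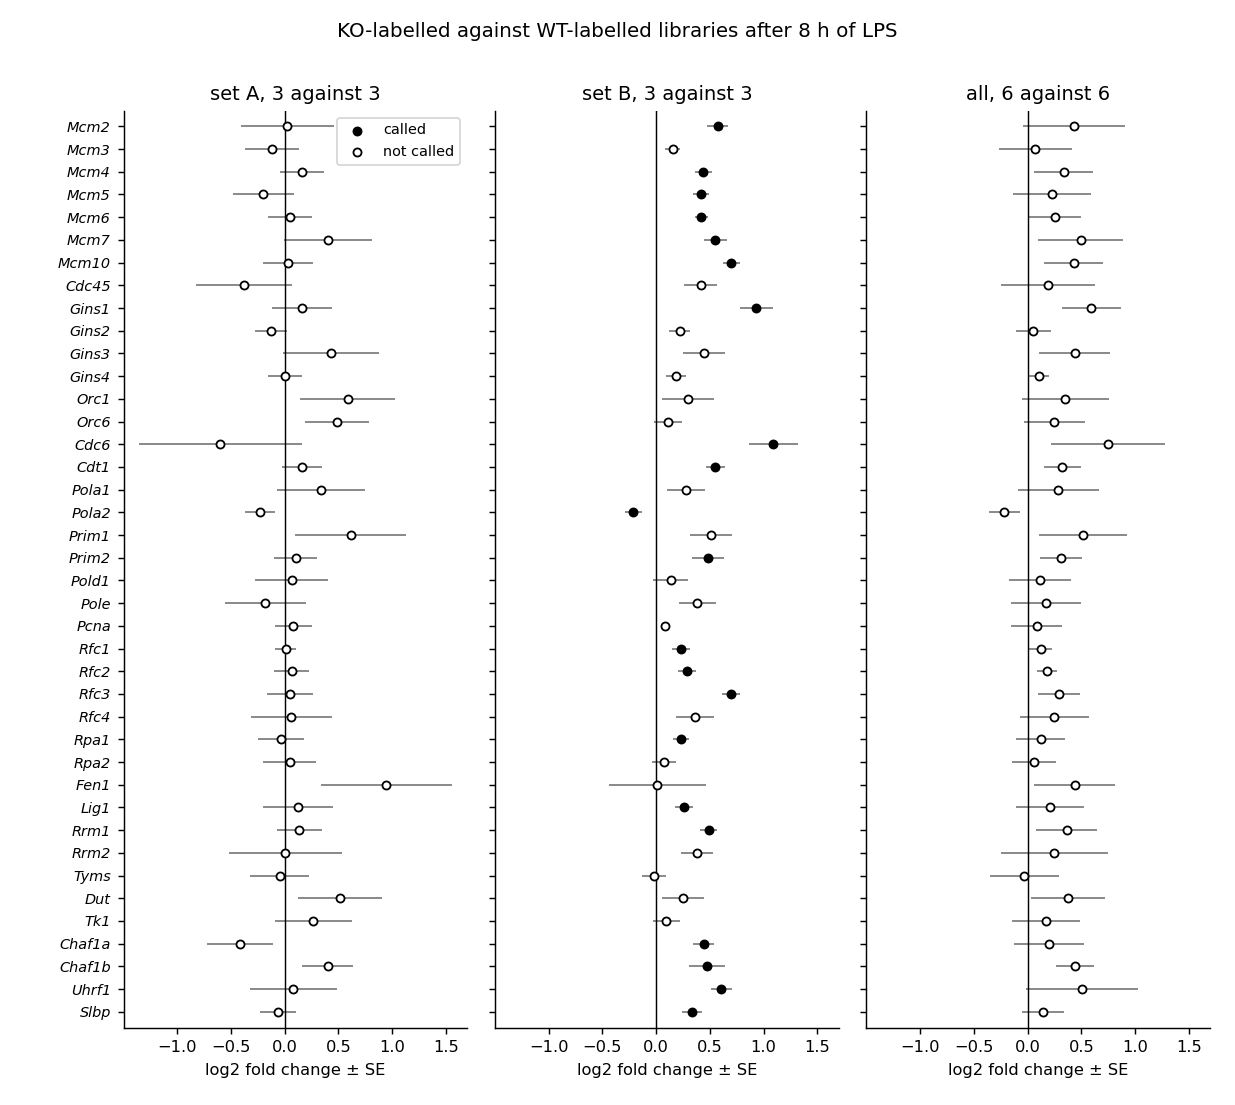
Log2 fold change with SE of each of the 40 genes between KO-labelled and WT-labelled libraries after 8 h of LPS, in set A (3 against 3), set B (3 against 3) and all libraries (6 against 6), with filled points for called genes. Called points are seen in the set B panel alone, 20 to the right of 0 and Pola2 to the left, and the set A points lie on both sides of 0.

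Other genes of the pathway moved in the same way for the most part. Of 29 further replication genes, 21 fell and 5 rose in KO-labelled libraries at 8 h (median -1.25), and 22 fell and 4 rose in WT-labelled libraries (median -1.36). At 8 h 37.2% of all genes fell and 34.9% rose in KO-labelled libraries, and 37% fell and 34.2% rose in WT-labelled libraries. These shares also stand beside the 8 h counts of the lists that follow. The largest WT-labelled falls were in Clspn, which links the fork to the checkpoint, Pole2, a polymerase epsilon subunit, and Ticrr, which helps to fire origins. In KO-labelled libraries Clspn changed by -3.97, Pole2 by -4.46 and Ticrr by -3.25, and in WT-labelled libraries Clspn changed by -5.01, Pole2 by -4.51 and Ticrr by -4.30. Mcmbp, which binds MCM subunits, rose by 1.98 in KO-labelled and 1.58 in WT-labelled libraries. Smaller rises were called for Orc4 (0.59 in KO-labelled and 0.58 in WT-labelled libraries) and Rnaseh2b (0.52 in KO-labelled and 0.37 in WT-labelled libraries), which are smaller than the shift of the median of all genes under library totals. Of 16 fork repair genes, 15 fell in each label (median -2.89 in KO-labelled and -3.24 in WT-labelled libraries). Among them were the uracil glycosylase Ung (-4.79 in KO-labelled and -5.21 in WT-labelled libraries) and the nuclease Exo1 (-4.08 in KO-labelled and -4.59 in WT-labelled libraries).

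Among 20 genes of E2F and G1/S control, 16 fell and 2 rose at 8 h in each label (medians -1.52 in KO-labelled and -1.69 in WT-labelled libraries). E2f1, an activating E2F factor, stood at 52.4, 57.7 and 66.2 CPM in KO-labelled controls, 35.5, 46.3 and 48.4 CPM at 2 h, and 12.5, 20.4 and 23.1 CPM at 8 h. In WT-labelled libraries it stood at 56.6, 61.5 and 63.9 CPM in controls, 32.2, 45.7 and 50.2 CPM at 2 h, and 12.9, 19.5 and 24.4 CPM at 8 h. The 3 groups of each label did not overlap. E2f1 changed at 2 h by -0.39 (edgeR adjusted p = 0.0197) in KO-labelled and -0.50 (edgeR adjusted p = 0.00251) in WT-labelled libraries, and at 8 h by -1.61 ± 0.14 in KO-labelled and -1.72 ± 0.14 in WT-labelled libraries (SE). At 8 h in KO-labelled libraries E2f2 changed by -3.76 and cyclin A2 (Ccna2) by -4.51, while E2f5 rose by 2.00 and the pocket protein gene Rbl1 by 1.76. In WT-labelled libraries E2f2 changed by -4.71 and Ccna2 by -5.10, while E2f5 rose by 1.79 and Rbl1 by 1.39. E2f8, an E2F repressor, changed by 0.99 at 2 h and -1.30 at 8 h in KO-labelled libraries and by 1.02 at 2 h and -1.66 at 8 h in WT-labelled libraries.

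Of 16 other genes of nucleotide metabolism, 13 fell and 2 rose at 8 h in each label (median -1.50 in KO-labelled and -1.64 in WT-labelled libraries). Samhd1, which breaks down dNTPs and limits their pool in macrophages, stood at 181, 240 and 258 CPM in KO-labelled controls, 205, 278 and 288 CPM at 2 h, and 3242, 3608 and 4603 CPM at 8 h. In WT-labelled libraries it stood at 133, 164 and 234 CPM in controls, 163, 187 and 322 CPM at 2 h, and 2515, 3340 and 4337 CPM at 8 h. All 8 h libraries were far above all others, by 4.03 ± 0.20 in KO-labelled and 4.30 ± 0.20 in WT-labelled libraries (SE), in the same libraries in which Rrm2 was lowest. Dck, deoxycytidine kinase, rose by 1.37 in KO-labelled and 1.65 in WT-labelled libraries, and Ctps, CTP synthase, fell by 2.88 in KO-labelled and 2.60 in WT-labelled libraries. Of 13 replication chromatin genes, 3 of which are among the 40, 10 fell and 2 rose in KO-labelled and 11 fell and 2 rose in WT-labelled libraries. In KO-labelled libraries the histone acetyltransferase Hat1 rose by 1.97 and the chaperone Asf1a by 1.32, and the histone gene H2afx fell by 3.23. In WT-labelled libraries Hat1 rose by 1.69 and Asf1a by 0.99, and H2afx fell by 3.39.

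Mitosis genes, another mark of dividing cells, were mostly not called at 2 h in the pooled fit and were lower at 8 h. Of 20, 0 fell and 1 rose at 2 h in each label, namely Mki67 (0.88 in KO-labelled and 0.73 in WT-labelled libraries). Of all genes, 16.4% fell and 18.9% rose in KO-labelled and 17.7% fell and 20.3% rose in WT-labelled libraries. With the set as a term 5 fell at 2 h in KO-labelled (21.2% of all genes) and 3 in WT-labelled libraries (22.8%). In set A alone 1 fell in KO-labelled (14.5% of all genes) and 0 in WT-labelled libraries (17.2%). In set B alone 11 fell in KO-labelled (22.9% of all genes) and 10 in WT-labelled libraries (24.3%). At 8 h 19 fell and 1, Tpx2 (1.03), rose in KO-labelled libraries (median -3.22), and 19 fell and 0 rose in WT-labelled libraries (median -3.65). Cenpf, a kinetochore gene, changed by -5.12 in KO-labelled and -5.91 in WT-labelled libraries, and Cdc20, an activator of the anaphase-promoting complex, by -4.69 in KO-labelled and -4.80 in WT-labelled libraries. The sums over the 20 genes in KO-labelled libraries were 853, 1300 and 1454 CPM in controls, 889.6, 1378 and 1463 CPM at 2 h, and 290.8, 367.3 and 398.3 CPM at 8 h. The WT-labelled sums were 714.5, 1476 and 1920 CPM in controls, 835.4, 1595 and 1789 CPM at 2 h, and 280, 318.6 and 341.2 CPM at 8 h.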

How the data were processed

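RNA-seq was done on 36 libraries of mouse BMDM, 6 in each of 6 groups of genotype label and treatment. The authors deposited 1 file of raw counts per library, with reads per gene and no normalization. HTSeq and the mm10 build are named in the submitters' processing notes. The aligner, the counter's version and its use of strand are not stated in the sources used here. Of 54232 gene identifiers, 54079 were found in GENCODE M21, used for symbols and positions, and 0 rows named no gene. Library totals of 8953489 to 18482551 counts limit the precision of genes with few reads.

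Counts were fitted with edgeR 4.0.16 in R 4.3.3. Low counts were removed with filterByExpr, which left 12957 genes. Library sizes were scaled by TMM, and CPM are relative to the scaled sizes. All 36 libraries entered 1 quasi-likelihood fit, with a mean for each group, p-values were adjusted over all genes tested (Benjamini-Hochberg), and adjusted p below 0.05 was called. SEs come from the F statistic. Scripts were tested on simulated data with known changes.

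The members, the other gene lists and the tests were chosen with earlier results of these data known. Full values are given for the genes with the largest and smallest KO-labelled 8 h change in each role, for Rfc3 as the gene that rose, and for members not called in WT-labelled libraries at 8 h. Of other lists, up to 3 called genes a direction with the largest WT-labelled 8 h change are named, and E2f8, Mki67 and Tpx2 were named after their values were seen.

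Replicate numbers follow the order of the samples, and no label says which libraries pair across groups. BMDM in the genotype label marks replicate 6 of every group, and it was not used to pair libraries. Compared gene by gene, replicate pairs had a median chi-square of 14.94 inside set A, 3.34 inside set B and 49.94 between the sets, and no libraries were merged. The sets came from the first principal component of residual log2 CPM and hold replicates 1, 2 and 6 (A) and 3, 4 and 5 (B) of each group.

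Alternatives were DESeq2 size factors, library totals, no count filter, 1 CPM in 6 libraries, DESeq2 1.42.0 or limma-voom (limma 3.58.1) as the test, a fit of the compared groups alone, a minimum log2 fold change of 1, dropping the 6 libraries with BMDM in the genotype label, the set as a term, each set alone, and each library left out in turn. Leaving out the 4 libraries with muscle markers above 100 CPM, from all libraries or from set B, and the test of set B minus set A, were chosen after seeing the data.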

Additional observations from a re-analysis of the deposited data

Results flagged for a closer look

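In each of 246 groups of 6 libraries (the 40 genes and the summed level in every group), the highest and the lowest library were set against the rest by Dixon's ratio at its usual critical value, which chance passes in about 1 of 20 groups. Of the 246, 4 passed. Pole was 4.92 CPM in WT LPS 8 h replicate 5, against 2.37 to 3.2 CPM in the other libraries of that group, and this is the library with the most skeletal muscle RNA. Pcna was 371.1 CPM in WT LPS 2 h replicate 1, against 576 to 695 CPM in the others. Rfc3 was 7.19 CPM in WT LPS 2 h replicate 6, against 12.2 to 14.2 CPM, and 23.9 CPM in WT control replicate 1, against 18.5 to 20.2 CPM in the other controls.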

How the results depend on the processing

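No analysis paired by library was run, because the labels give no replicate numbers that the groups share. Sample order was not used to pair libraries, although the sets held the same replicate numbers in every group. The library sets, found in the data, were used as a term instead. The counts of called genes among the 40 kept within 1.5 times of the value reported under the other settings, except as follows. At 2 h, KO-labelled calls numbered 26 with library totals, 2 with a minimum log2 fold change of 1, 27 with the set as a term, 17 in set A alone and 29 in set B alone, and WT-labelled calls numbered 30, 2, 35, 30 and 28 in the same settings. In set B without its muscle marker libraries they were 30 (KO-labelled) and 28 (WT-labelled). With library totals the median log2 fold change of all genes at 2 h was itself -0.31 (KO-labelled) and -0.32 (WT-labelled). The counts of 26 and 30 are relative to that lower scale. The share of all genes called lower at 2 h is not given for library totals, the minimum log2 fold change or this set B fit. From 2 h to 8 h, KO-labelled calls numbered 22 with the minimum log2 fold change. In set B alone, KO-labelled against WT-labelled libraries gave 2 calls in controls, 3 at 2 h and 21 at 8 h, and the interaction at 8 h gave 19, against 0 reported for each. Without the muscle marker libraries of set B these were 3, 3, 18 and 16. For controls and 2 h, the share of all genes called in that fit is not given. Their cause was not tested.

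With each library left out in turn, KO-labelled calls ranged from 6 to 11 at 2 h, 38 to 39 at 8 h and 32 to 37 from 2 h to 8 h, and WT-labelled calls from 9 to 14, 38 to 39 and 35 to 39. The contrasts of labels and the interactions stayed at 0. Without the 4 libraries with muscle markers, KO-labelled calls numbered 9, 39 and 34 and WT-labelled calls 10, 38 and 35 in the same order, and 0 for the contrasts of labels and the interactions.

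Single values changed direction in 7 of 6151 cases under the other settings. These were Rfc3 at 8 h with library totals (-0.046 in KO-labelled and -0.44 in WT-labelled libraries), Rfc3 in WT-labelled set B at 8 h (-0.24, and -0.29 without its muscle marker libraries), Cdt1 in KO-labelled set A at 2 h (0.041), and Cdt1 in controls of set B, KO-labelled against WT-labelled (0.22 with and without those libraries). Of the 6151, 97 lost their call and 315 gained one. With 1 library left out, 58 of 6240 values lost their call, 25 gained one and 0 changed direction.

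Library totals in place of TMM lowered the share of higher calls among all genes at 2 h to 20.3% in place of 53.5% in KO-labelled and 20.7% in place of 53.4% in WT-labelled libraries, and at 8 h to 19.5% in place of 48.5% and 19.9% in place of 48%. The directions given are relative to the TMM scale. Depth limits the genes with few counts at 8 h, among them Fen1 (2 to 12 counts a library), Cdc6 (1 to 40), Prim1 (1 to 39) and Orc1 (5 to 36).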
